A study of Mus musculus with 9 samples.

Results

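Hcn2, Hcn3 and Hcn4 encode pore-forming subunits of HCN pacemaker channels, and they were measured in lumbar dorsal root ganglia, which hold the cell bodies of sensory neurons of the hindlimb and lower trunk. The members were chosen by gene symbol alone, as 3 of the 55536 genes counted in each library, and all 3 passed the filter on low counts that left 17258 genes for testing. The study compared 5 libraries with inducible conditional knock-out of the Prdm12 gene (icKO) with 4 control libraries whose genotype is labelled wild type. Both groups were adult C57Bl6 mice, and tissue was taken 1 month after tamoxifen, the drug that switches on an inducible deletion. The labels give neither the Cre driver and the cells it acts in nor the deleted exon, and they do not say whether control mice carried Cre or floxed alleles, so such differences between the groups and the loss of Prdm12 cannot be told apart. They also do not say whether each library is a separate animal, so p-values rest on the spread among libraries, part of which may be technical.

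HCN channels open when the membrane is hyperpolarised and let sodium and potassium through, giving the inward current called Ih that brings a cell back towards firing. Subunits assemble as tetramers, and binding of cyclic AMP (cAMP) to their cytoplasmic end makes opening easier. In sensory neurons HCN2 is known for raising the firing of nociceptors, the neurons that sense pain, when inflammatory mediators raise cAMP. HCN4 is best known from the pacemaker cells of the heart, and HCN3 is known for responding little to cAMP. Prdm12 encodes a zinc finger regulator needed for nociceptors to form, and the comparison asked which genes depend on it in adult ganglia.

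The 3 genes share a coding sequence around the pore, which is shown because it bears on how well reads of one gene can be told from another. Each has 8 coding exons, and coding exons 3 to 7 have the same lengths in all 3 genes (162, 219, 147, 241 and 165 bases). The lines below give 75 bases of coding exon 4 in the 5′ to 3′ direction of the transcript, from the GENCODE transcripts on mm10. The capitals mark the 15 bases that encode the selectivity filter, the narrowest part of the pore. The stretches lie at chr10:79728923-79728997 on the plus strand for Hcn2, chr3:89150976-89151050 on the minus strand for Hcn3 and chr9:58855555-58855629 on the plus strand for Hcn4.
Hcn2: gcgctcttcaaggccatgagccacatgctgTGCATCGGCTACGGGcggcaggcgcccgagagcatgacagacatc
Hcn3: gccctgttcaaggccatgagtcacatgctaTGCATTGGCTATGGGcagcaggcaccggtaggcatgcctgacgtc
Hcn4: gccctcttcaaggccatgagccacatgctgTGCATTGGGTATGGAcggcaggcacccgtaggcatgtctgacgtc
Of the 75 bases, 58 were the same in all 3 genes. Hcn3 and Hcn4 shared 67 (89.3%), Hcn2 and Hcn4 63 (84.0%), and Hcn2 and Hcn3 60 (80.0%). Over the whole coding sequence, identity of aligned bases was 74.4% for Hcn2 with Hcn3, 75.5% for Hcn2 with Hcn4 and 73.8% for Hcn3 with Hcn4. The longest run of identical bases between any pair of transcripts was 32 or 33 bases.

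Hcn2 (ENSMUSG00000020331) lies at chr10:79716634-79736108 on the plus strand, with 3195 bases of merged exons and 2 coding transcripts. Hcn3 (ENSMUSG00000028051) lies at chr3:89146074-89160196 on the minus strand with 4154 bases, and Hcn4 (ENSMUSG00000032338) at chr9:58823412-58863175 on the plus strand with 6118 bases, each with 1 coding transcript. The end of Hcn3 overlaps the exons of Pklr, the liver and red cell pyruvate kinase gene on the opposite strand, over 711 bases or 17.1% of the Hcn3 exon bases. Whether counting used the strand is not given in the sources used here. Pklr itself had only 0 to 4 counts per library. That low count does not show whether Hcn3 reads in the shared bases were counted, which was not tested.

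Promoter sequence was available for Hcn2 and Hcn4 and is shown because high GC content marks both windows. The GC content given beside the Hcn2 values further on is that of transcripts, a different measure. The lines give the 250 bases before the RefSeq start on GRCm38.p6 (mm10), 5′ to 3′ on the plus strand, at chr10:79716384-79716633 for Hcn2 and chr9:58822699-58822948 for Hcn4. Capitals mark GC boxes, searched as GGGCGG on both strands (CCGCCC on the strand shown).
Hcn2: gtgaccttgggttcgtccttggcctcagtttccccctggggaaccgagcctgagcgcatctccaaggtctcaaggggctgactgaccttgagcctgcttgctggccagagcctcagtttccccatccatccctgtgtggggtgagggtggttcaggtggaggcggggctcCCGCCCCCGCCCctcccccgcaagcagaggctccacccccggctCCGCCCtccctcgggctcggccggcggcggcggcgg
Hcn4: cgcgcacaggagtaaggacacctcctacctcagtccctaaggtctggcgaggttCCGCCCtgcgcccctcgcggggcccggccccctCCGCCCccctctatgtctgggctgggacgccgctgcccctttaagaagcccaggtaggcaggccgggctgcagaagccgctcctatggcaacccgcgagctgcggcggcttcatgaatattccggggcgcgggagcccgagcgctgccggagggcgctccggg
The Hcn2 window held 3 GC boxes, a pair of them adjoining, and the Hcn4 window held 2. A GC box was found in 32.7% of 32851 windows of the same length. The letters TATAAA were found on neither strand of these windows, against 12.4% of all windows. GC content was 70.4% for Hcn2 and 71.2% for Hcn4, above 91.2% and 92.2% of windows, whose median was 52.4%.

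Libraries held 19607740 to 29481589 counts, the fewest in control 4, and values are given in CPM, a unit that puts all libraries on the same total, with TMM factors. The targeted gene followed the labels, with Prdm12 at 22.3 to 26.2 CPM in icKO and 116 to 163 CPM in control, a log2 fold change of -2.48 (SE 0.09, with adjusted p = 2.51e-08 in edgeR's quasi-likelihood fit). Markers of neurons and of their glia were high, with 10 pan-neuronal genes summing to 10570 to 12270 CPM in icKO and 10580 to 12280 CPM in control. Control 4 stood apart in 8 markers of spinal cord, which summed to 68.5 CPM there against 12.6 to 19.2 CPM in the other 8 libraries. In that library the astrocyte gene Gfap was at 29.7 CPM against 0.449 to 1.92 CPM elsewhere, the astrocyte channel gene Aqp4 at 34.2 against 10.9 to 16.7 CPM, the oligodendrocyte gene Mobp at 3.4 against 0.182 to 0.908 CPM and the glycine transporter gene Slc6a5 at 0.618 against 0 to 0.147 CPM. The other 4 markers, Mog, Opalin, Slc32a1 and Chat, were at most 0.258 CPM in any library, with Opalin at 0 in control 4. In bulk tissue, fewer cells of a type and less RNA per cell cannot be told apart.

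All 3 HCN genes were well above the floor of 3 counts, which equals 0.102 to 0.153 CPM. Hcn2 was read 1219 to 1921 times per icKO library and 1586 to 2117 times per control library. Hcn3 gave 676 to 1041 counts in icKO and 641 to 791 in control. Hcn4 gave the fewest, with 283 to 489 in icKO and 314 to 440 in control.

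Levels of different genes were compared per length, as RPKM, the CPM divided by kilobases of merged exons. Hcn2 was the highest of the 3 at 18.5 ± 3.29 RPKM in icKO (SD, n = 5) and 23.8 ± 7.10 RPKM in control (SD, n = 4), above 82.2% and 86.4% of the 14804 coding genes tested. Hcn3 followed at 7.54 ± 0.874 and 7.08 ± 1.14 RPKM, near the middle of coding genes (above 61.7% and 60% of them). Hcn4 was lowest, at 2.30 ± 0.562 and 2.44 ± 0.309 RPKM, above 33.2% and 34.4%. The order Hcn2, Hcn3, Hcn4 held in 9 of 9 libraries, and no neighbours in that order overlapped: the lowest Hcn2 level of any library was 15.7 RPKM, the highest Hcn3 level 8.73 RPKM, the lowest Hcn3 level 6.30 RPKM and the highest Hcn4 level 3.16 RPKM. Heart muscle, the tissue HCN4 is best known from, was checked by 6 marker genes, at 9.75 to 12.3 CPM summed in icKO and 10.7 to 11.9 CPM in control.

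As a share of the summed RPKM of the 3 genes, Hcn2 made up 65.3%, 63.8%, 64.9%, 64.6% and 67.1% in icKO 1 to 5 and 66.3%, 70.9%, 71.4% and 74.8% in control 1 to 4. Hcn3 made up 27.2%, 28.6%, 27.1%, 27.6% and 23.7% in icKO and 25.4%, 21.8%, 20.2% and 19.1% in control. Hcn4 made up 7.54% to 9.21% in icKO and 6.07% to 8.37% in control. The Hcn2 share was therefore lower in 4 of the 5 icKO libraries than in any control library, and the groups overlapped because icKO 5 lay above control 1. The ratio of Hcn2 to Hcn3 per length, which does not depend on how libraries were scaled, was 2.4, 2.23, 2.4, 2.34 and 2.83 in icKO 1 to 5 and 2.61, 3.25, 3.53 and 3.92 in control 1 to 4. Its mean was 2.44 ± 0.228 in icKO and 3.33 ± 0.552 in control (SD, n = 5 and n = 4), a description with no test. Hcn2 over Hcn4 was 7.28 to 8.66 in icKO and 7.97 to 12.3 in control, so these groups overlapped. Hcn3 over Hcn4 was 3.61, 3.76, 3.38, 3.52 and 2.58 in icKO 1 to 5 and 2.41 to 3.15 in control, with icKO 1 to 4 above every control library and icKO 5 among them.

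**Figure D1:**
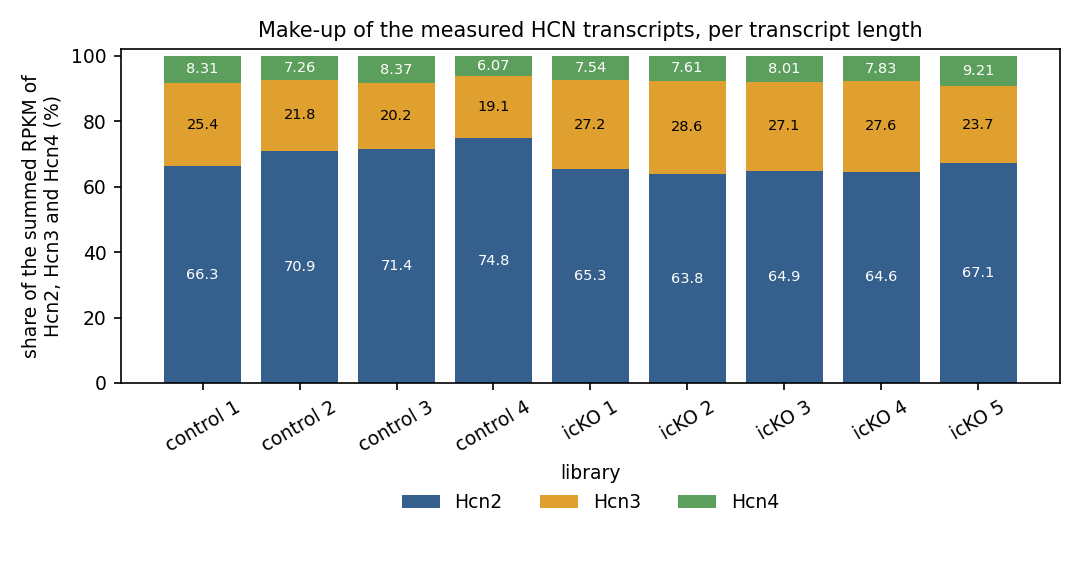
Share of the summed RPKM of Hcn2, Hcn3 and Hcn4 taken by each gene (percent, y axis) in each of the 9 libraries (x axis). Hcn2 takes 63.8% to 67.1% in icKO and 66.3% to 74.8% in control, and Hcn4 takes 6.07% to 9.21%.

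Hcn2 was at 52.2, 52.2, 66.9, 50.1 and 73.4 CPM in icKO 1 to 5 and at 58.1, 65.5, 71.4 and 109 CPM in control 1 to 4. Control 4 was the highest of all 9 libraries, and icKO 3 and 5 lay above control 1 and 2, so the groups overlapped. The means were 59.0 ± 10.5 CPM in icKO (SD, n = 5) and 76.0 ± 22.7 CPM in control (SD, n = 4). The log2 fold change of -0.36 (SE 0.17, 95% interval -0.73 to 0.005) did not pass in edgeR's quasi-likelihood fit (Benjamini-Hochberg adjusted p = 0.459 over 17258 genes). As a fold this is 0.778, with an interval of 0.603 to 1. The unadjusted p was 0.0525, and 11.4% of all genes had a smaller one. The two-sided exact permutation test gave p = 0.167, where the smallest value that groups of 5 and 4 can give is 0.00794.

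Hcn3 was at 28.3, 30.5, 36.3, 27.8 and 33.8 CPM in icKO 1 to 5 and at 29.0, 26.2, 26.3 and 36.2 CPM in control 1 to 4. Control 4 was again the highest control and lay beside icKO 3, the highest icKO library. The means were 31.3 ± 3.63 CPM (SD, n = 5) and 29.4 ± 4.72 CPM (SD, n = 4). The log2 fold change was 0.09 (SE 0.11, 95% interval -0.14 to 0.33), a fold of 1.07 with an interval of 0.908 to 1.25, and did not pass (adjusted p = 0.824 by edgeR's test). The exact permutation p was 0.476.

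Hcn4 was at 11.5, 11.9, 15.8, 11.6 and 19.3 CPM in icKO 1 to 5 and at 14.0, 12.8, 16.0 and 17.0 CPM in control 1 to 4. The icKO libraries spanned the control range on both sides, with icKO 5 highest of all. The means were 14.0 ± 3.44 CPM (SD, n = 5) and 14.9 ± 1.89 CPM (SD, n = 4). The log2 fold change was -0.09 (SE 0.155, 95% interval -0.42 to 0.25), a fold of 0.941 with an interval of 0.745 to 1.19, and did not pass (adjusted p = 0.894 by edgeR's test). The exact permutation p was 0.579.

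Thus 0 of the 3 genes passed, against 147 of all genes tested (0.852%), of which 82 were higher (0.475%) and 65 lower (0.377%) in icKO. With an unadjusted p under 0.05 in the fit of all 9 libraries, 0 of the 3 members were found against 11.1% of all genes. DESeq2 also called 0 of the 3, with adjusted p-values of 0.582 for Hcn2, 0.885 for Hcn3 and 0.936 for Hcn4. In 0 of the 3 were the groups free of overlap, against 4.50% of all genes. The sizes of change can be read against the median absolute log2 fold change of all genes, 0.0881.

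**Figure D2:**
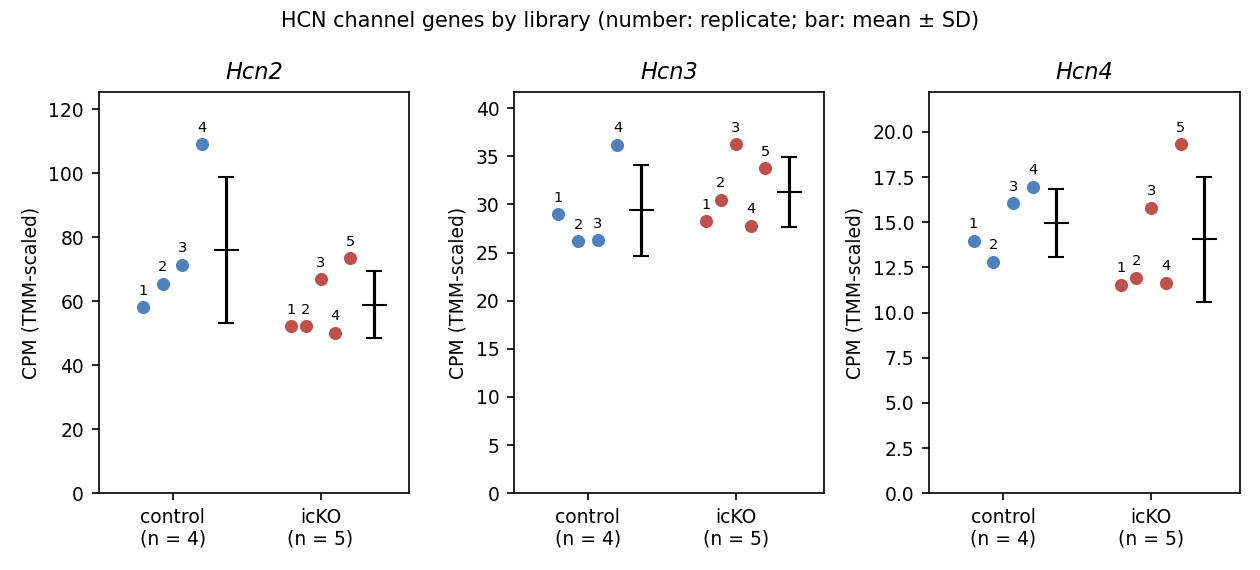
CPM of Hcn2, Hcn3 and Hcn4 (y axes, each from 0) in each library, numbered by replicate, with the mean ± SD of 4 control and 5 icKO libraries. The groups overlap for every gene, and control 4 is the highest control library in all 3 panels.

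**Figure D3:**
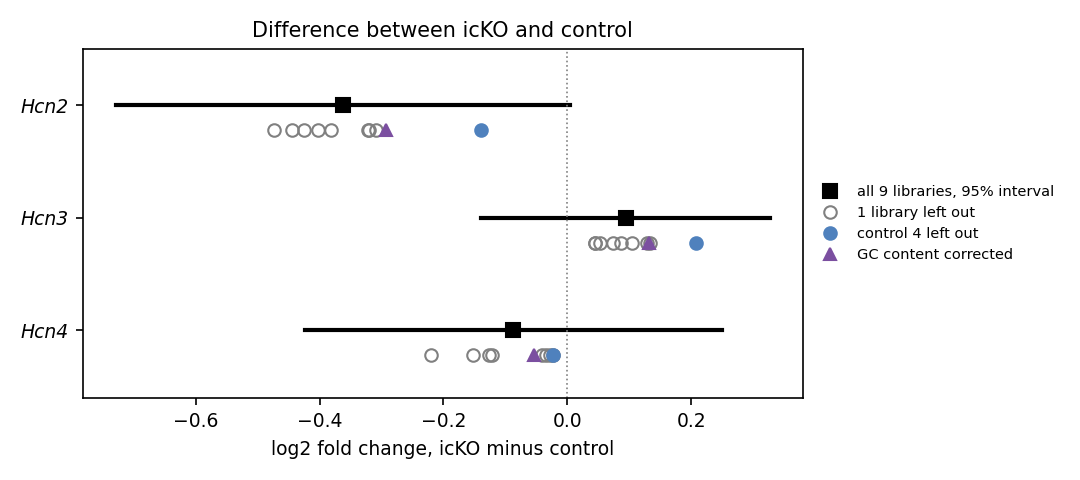
Log2 fold change of each gene, icKO minus control (x axis), with its 95% interval from all 9 libraries (squares and bars), with each single library left out (circles, control 4 filled) and after correction for GC content (triangles). Without control 4 the Hcn2 value moves to -0.139 and that of Hcn3 to 0.207.

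The Hcn2 value moved most when control 4 was left out. Without that library the log2 fold change was -0.139 (adjusted p = 0.739 by edgeR's test), the smallest size with any library left out, and it was largest, at -0.473, without control 1. Without control 4, Hcn3 was at 0.207 with an unadjusted p of 0.0493 (adjusted p = 0.411), and Hcn4 at -0.023 (adjusted p = 0.979). Hcn4 moved furthest without icKO 5, to -0.220. Control 4 is also the library with the highest spinal cord markers, and the part of spinal cord tissue in the Hcn2 level was not tested.

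**Figure D4:**
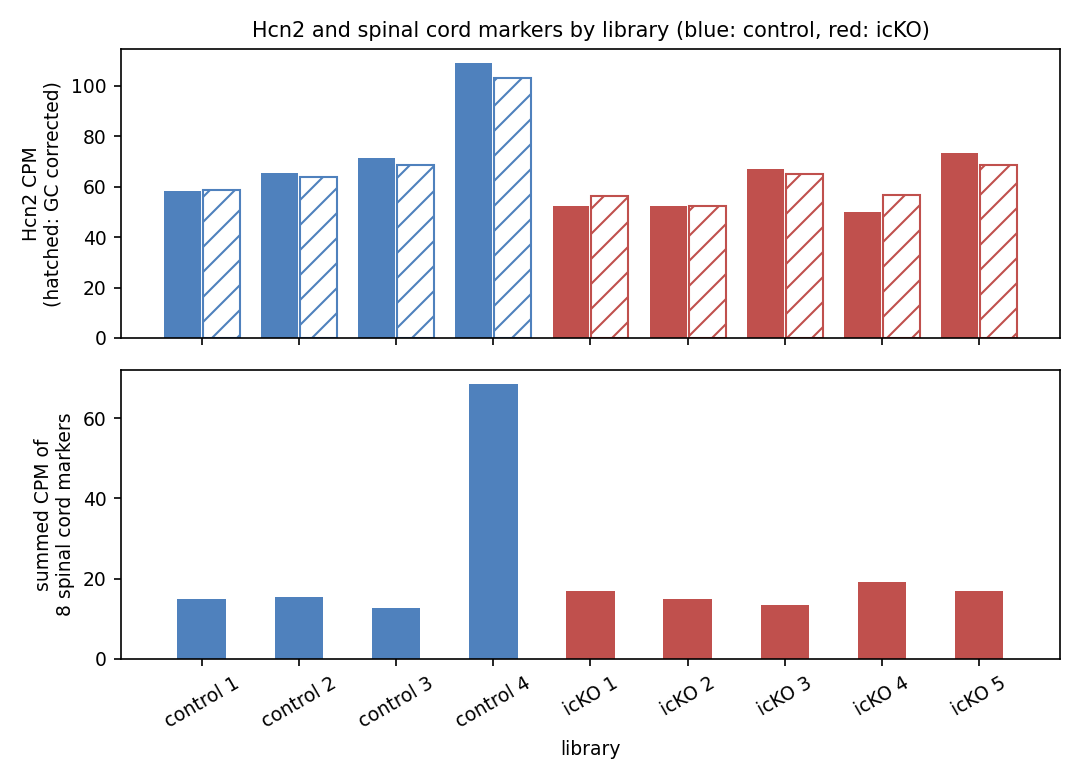
Upper panel: Hcn2 CPM in each library before (solid) and after (hatched) correction for GC content. Lower panel: summed CPM of 8 spinal cord markers in the same libraries. Control 4 is highest in both, at 109 CPM (103.3 CPM corrected) and 68.5 CPM.

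Hcn2 has an unusually GC-rich transcript, at 65.4% GC, above 99.6% of the genes tested, and Hcn3 and Hcn4 are at 58% each, above 90% and 89.8%. GC-rich genes as a group also moved between libraries. The 551 genes at 60% GC or more had a median log2 deviation from their own mean of -0.145 in icKO 4, -0.079 in icKO 1, 0.075 in icKO 5 and 0.058 in control 4, with the other libraries between -0.007 and 0.046. When the trend with GC was removed in each library, a correction added after the data were seen, Hcn2 was at 56.3, 52.5, 65.1, 56.9 and 68.5 CPM in icKO and 58.5, 63.9, 68.7 and 103.3 CPM in control. Control 4 remained the highest, and the log2 fold change was -0.293 (SE 0.144, adjusted p = 0.477 by edgeR's test). Hcn3 was then at 0.131 and Hcn4 at -0.054, neither past the threshold.

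The deposited labels do not give sex, but Y-linked genes were high in icKO 1 and 2 and control 1 and 3 (98.1 to 165 CPM summed over 4 genes) and low in icKO 3, 4 and 5 and control 2 and 4. Among the high libraries Hcn2 was at 52.2 and 52.2 CPM in icKO and 58.1 and 71.4 CPM in control, a log2 fold change of -0.303 (adjusted p = 0.51 by edgeR's test). Among the low libraries it was -0.456 (adjusted p = 0.91), so the direction was the same in both. Hcn3 was at 0.096 and 0.069. Hcn4 was at -0.346 within the high and 0.072 within the low libraries, opposite directions of which neither passed. The test of that difference for Hcn4 gave an unadjusted p of 0.162, with an adjusted p of 1.

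Levels were also set against the neurons of the ganglion. HCN channels are prominent in A-fibre neurons, the large myelinated neurons of touch and muscle sense. The 16 A-fibre markers summed to 3670 to 4195 CPM in icKO and 4311 to 4809 CPM in control without overlap, with Ntrk3, the neurotrophin-3 receptor gene, the 1 member that passed (higher, against 0.475% of all genes). At an unadjusted p under 0.05 were 9 of the 16, 8 lower and 1 higher, against 11.1% of all genes in either direction. The neurofilament gene Nefh held 54.5% of that sum, and the other 15 genes summed to 1862 to 1980 CPM in icKO and 1828 to 2019 CPM in control. Those 15 genes include Ntrk3, whose mean rose from 374.4 CPM (control, SD 67.16, n = 4) to 527.2 CPM (icKO, SD 18.51, n = 5). That rise offsets lower values of other genes, so the overlap of the 15-gene sum does not show that only Nefh was lower. A sum without both Nefh and Ntrk3 was not tested. Per 1000 CPM of all 16 markers, Hcn2 was at 13.5, 12.4, 16.4, 13.7 and 18 CPM in icKO and 12.4, 14.7, 14.9 and 25.3 CPM in control. Hcn3 was at 7.33, 7.27, 8.86, 7.57 and 8.29 in icKO and 6.21, 5.88, 5.46 and 8.4 in control, where control 1 to 3 lay below every icKO library and control 4 within the icKO range. Hcn4 was at 2.84 to 4.74 in icKO and 2.88 to 3.93 in control, and overlapped as Hcn2 did. The 12 nociceptor markers had 0 higher and 2 lower that passed, against 0.475% and 0.377% of all genes. Their sums were 5229 to 6080 CPM in icKO and 5296 to 6812 CPM in control. Per 1000 CPM of nociceptor markers, Hcn3 was at 4.8 to 6.93 in icKO and 4.26 to 6.1 in control, with control 2 and 3 above icKO 4. Per 1000 CPM of pan-neuronal markers, it was at 2.45 to 3.27 in icKO and 2.36, 2.21, 2.26 and 3.42 in control 1 to 4. There, control 1 to 3 again lay below every icKO library. Hcn2 and Hcn4 overlapped between the groups with either divisor.

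The genes whose log2 CPM followed each member most closely over the 9 libraries were found among 11267 genes. For Hcn2 they were Ppp1r16b, a regulatory subunit of protein phosphatase 1 (Pearson r = 0.964), Socs7, a suppressor of cytokine signalling (0.963), and Rcc2, a regulator of chromosome condensation (0.962). For Hcn3 they were the cadherin gene Cdh1 (0.967), the neurturin receptor gene Gfra2 (0.963) and Ei24 (0.949). For Hcn4 they were the G protein subunit gene Gna12 (0.974), the F-box gene Fbxl18 (0.97) and the mitochondrial carrier gene Slc25a29 (0.956). These are the highest values of many, over libraries that share depth and GC effects, and are descriptions only. Leaving out the 2 libraries farthest from each member's median (control 4 with icKO 4, 3 or 5) gave r of 0.904 to 0.975. The remaining libraries had also served to choose these genes, so a high r among them was partly fixed by that choice. Among the members r was 0.78 for Hcn2 with Hcn4, where Hcn4 ranked 328 among all genes compared with Hcn2, 0.593 for Hcn3 with Hcn4 (Hcn4 ranked 1090) and 0.554 for Hcn2 with Hcn3 (Hcn3 ranked 1489).

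Genes of proteins that bind or modify HCN channels gave no call. Of 17 listed partners and modulators 15 were tested, 0 passed in either direction, and the median log2 fold change was -0.05, beside -0.000755 for all genes. Pex5l, which encodes TRIP8b, the auxiliary subunit that steers HCN channels to the membrane, was at 146 ± 2.38 CPM in icKO (SD, n = 5) and 142 ± 12.3 CPM in control (SD, n = 4); it was chosen for its role after its values were seen. The smallest adjusted p-values belonged to the scaffold gene Grasp at -0.29 (SE 0.12, adjusted p = 0.391 by edgeR's test), the adaptor gene Apba2 at -0.16 (adjusted p = 0.53) and Mapk14, a p38 kinase gene, at -0.09 (adjusted p = 0.684). Kcne2 and Cav3 were too low to test.

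Enzymes that make cAMP, the ligand of HCN channels, gave no call. Of 10 adenylyl cyclase genes 9 were tested, with 0 passed and a median of -0.14. At an unadjusted p under 0.05 were 3 lower and 1 higher, against 11.1% of all genes. Adcy5 was at 65.0 ± 5.52 CPM in icKO (SD, n = 5) and 81.8 ± 9.66 CPM in control (SD, n = 4), or -0.33 on the log2 scale (SE 0.08, adjusted p = 0.101 by edgeR's test). Adcy3 was at -0.42 (SE 0.11, adjusted p = 0.11) and Adcy2 at -0.28 (SE 0.08, adjusted p = 0.155). With DESeq2 Adcy5 and Adcy3 were called lower (adjusted p = 0.0166 and 0.0194), and without control 2 so were Adcy5, Adcy3 and Adcy2 with edgeR (adjusted p = 0.0338, 0.0435 and 0.0448).

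Enzymes that degrade cAMP included the only pathway genes that passed. Of 16 phosphodiesterase genes, all tested, 2 passed as higher and 0 as lower, against 0.475% and 0.377% of all genes, with a median of 0.04. Counting an unadjusted p under 0.05 by edgeR's test, 3 were higher and 2 lower, against 11.1% of all genes in either direction. Pde11a, whose enzyme degrades both cAMP and cyclic GMP, was at 73.7, 70.9, 74.4, 75.1 and 72.9 CPM in icKO 1 to 5 and at 52.5, 39.7, 47.6 and 57.0 CPM in control 1 to 4. Every icKO library lay above every control library, and the icKO libraries were closely grouped. Pde11a rose 1.49-fold (log2 fold change 0.58, SE 0.08, adjusted p = 0.00559 by edgeR's test), a call kept with each single library left out (adjusted p up to 0.0228). Among only the 4 libraries high or the 5 low in Y-linked counts the log2 fold change was 0.54 and 0.62, and the call was lost (adjusted p = 0.171 and 0.232). Pde1a, whose enzyme is switched on by calcium and calmodulin, was at 13.0, 11.3, 15.2, 14.7 and 11.4 CPM in icKO and 8.65, 8.45, 10.02 and 8.97 CPM in control, again without overlap. It rose by 0.54 (SE 0.11, adjusted p = 0.0411), but the call was lost without any single library other than icKO 2 or icKO 5 (adjusted p up to 0.105, without icKO 1) and after GC correction (adjusted p = 0.0546). Its log2 fold change was 0.49 to 0.605 with single libraries left out and 0.506 after GC correction. The cAMP-specific enzyme gene Pde4c was at 0.35 and did not pass (adjusted p = 0.244).

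Protein kinase A and Epac respond to cAMP beside HCN channels. Of 14 listed genes of these proteins and of inhibitors and anchoring proteins of the kinase, 0 passed, with a median of -0.000503. At an unadjusted p under 0.05 were 2 lower and 0 higher, against 11.1% of all genes in either direction. The catalytic subunit gene Prkaca was at 170.7 ± 20.95 CPM in icKO (SD, n = 5) and 204.4 ± 7.66 CPM in control (SD, n = 4), without overlap between libraries, and did not pass at -0.26 (SE 0.08, adjusted p = 0.22 by edgeR's test). The kinase inhibitor gene Pkib was at -0.42 (adjusted p = 0.376) and the regulatory subunit gene Prkar2b at 0.10 (adjusted p = 0.475).

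CNG and KCNH channels, with a cyclic nucleotide-binding domain or a domain homologous to it, are the nearest relatives of HCN channels. Of 14 listed, 8 were tested and 0 passed, with a median of -0.02. At an unadjusted p under 0.05 were 1 higher and 2 lower genes, against 11.1% of all genes in either direction. The Erg-type potassium channel gene Kcnh6 was at 92.4 ± 5.17 CPM in icKO (SD, n = 5) and 74.0 ± 8.97 CPM in control (SD, n = 4), without overlap, at 0.32 (SE 0.08, adjusted p = 0.0863 by edgeR's test). It passed with DESeq2 (adjusted p = 0.00964) and after GC correction (adjusted p = 0.0416). Its relatives Kcnh2 and Kcnh7 were at -0.27 (adjusted p = 0.299) and -0.12 (adjusted p = 0.437). Cnga1, Cnga2, Cnga3, Cnga4, Cngb3 and Kcnh4 were too low to test.

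**Figure D5:**
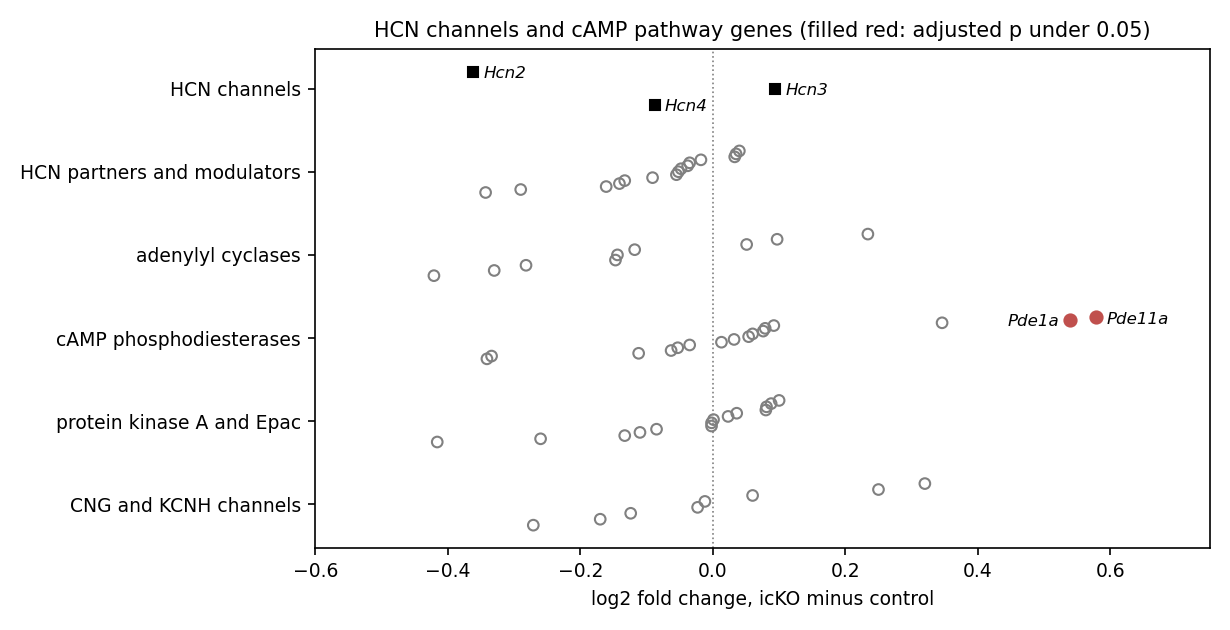
Log2 fold change, icKO minus control (x axis), of the 3 HCN genes and of each tested gene in 5 lists of partners, cAMP enzymes and related channels (rows). Filled points passed an adjusted p of 0.05, which only Pde11a at 0.58 and Pde1a at 0.54 did.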

How the data were processed

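Messenger RNA of lumbar dorsal root ganglia was sequenced in 9 libraries (5 icKO, 4 control), grouped by their titles and genotype labels. Raw counts of reads for each gene were deposited by the authors. The submitters' processing notes name featureCounts 1.5.0-p1, STAR 2.5.2a and bcl2fastq 2.20.0.422 with the mm10 build. The annotation release, strand setting and treatment of multimapping reads were not given in the sources used here. All 55536 identifiers were found in GENCODE M21.

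Genes were filtered with filterByExpr (minimum count 10, minimum total 15), scaled with TMM factors and compared with edgeR 4.0.16's quasi-likelihood test in R 4.3.3, unpaired, with Benjamini-Hochberg adjustment over 17258 genes and a threshold of 0.05. Standard errors were the size of a log2 fold change over the root of F. The test was checked on simulated data. Floors of 3 counts cover counting error only. Log2 CPM used a prior count of 2. Replicate libraries differed by more than sampling noise (chi-square per degree of freedom up to 23.07), so each was counted once. DESeq2 1.42.0 was an alternative. The members and gene lists were chosen with earlier results of these data known. Named genes are Prdm12, the members, the 3 genes of smallest adjusted p in each of 5 pathway lists, and the 3 coding genes of at least 5 CPM most correlated with each member. Alternatives were other scalings, filters and dispersion, each library left out, a replicate block and Y-linked counts. GC correction was added after the data were seen.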

Additional observations from a re-analysis of the deposited data

Results flagged for a closer look

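In 86 sets of 4 or 5 values checked for a library far from the rest of its group, 2 were found, where chance gives about 1 in 20. Hcn3 CPM per 1000 CPM of pan-neuronal markers was 3.42 in control 4, with the other control libraries at 2.21 to 2.36, a gap of 0.878 of the group's range. The share of Hcn4 in the summed RPKM of the 3 genes was 9.21% in icKO 5, with the other icKO libraries at 7.54% to 8.01%, a gap of 0.714 of the range.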

How the results depend on the processing

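Over 20 alternatives, Prdm12, Hcn2 and Hcn3 kept their direction and their side of the threshold. Hcn4 did so in 19 and reversed to 0.072 within the libraries with low Y-linked counts. Leaving out single libraries gave log2 fold changes of -2.528 to -2.368 for Prdm12, -0.473 to -0.139 for Hcn2, 0.044 to 0.207 for Hcn3 and -0.220 to -0.023 for Hcn4. Adjusted p ranged over all alternatives from 0.216 to 0.91 for Hcn2, 0.411 to 1 for Hcn3 and 0.522 to 1 for Hcn4. The unadjusted p of Hcn2 by edgeR's test fell under 0.05 in some alternatives. Among them were no filter (0.00527), without control 1 (0.0146) and the replicate block (0.0232). It stayed above 0.05 in others, such as without control 4 (0.297), as it did with DESeq2 (0.0959). For Hcn4 it was 0.0285 among libraries high in Y-linked counts. The 147 genes called became 393 with no filter, 436 with DESeq2 (198 higher), 3 among libraries high in Y-linked counts and 20 among those low in them (fewer libraries), and 78 (without icKO 1) to 175 (without control 2) with single libraries left out. The cause was not tested for the first of these. Same-numbered libraries did not deviate together (r of 0.103, -0.175, -0.0441 and 0.17 for numbers 1 to 4). The labels do not say whether a number marks a shared litter, batch or day, and these correlations cannot settle it. With the replicate block 48 genes were called (28 higher), Prdm12 was at -2.497, Hcn2 at -0.421 (not past the threshold), Hcn3 at 0.069 and Hcn4 at -0.232 (adjusted p = 0.563), by edgeR's test. Pde1a lost its call with a term for Y-linked counts (0.53, adjusted p = 0.0521), with the block (0.579, adjusted p = 0.0657) and among libraries high or low in Y-linked counts (0.387 and 0.663, adjusted p = 0.534 and 0.27), beside 0.54 with all libraries. With no filter Adcy5, Adcy3, Pde4c and Kcnh6 passed (adjusted p = 0.0217, 0.0388, 0.0493 and 0.0129). The mean log2 ratio of Hcn2 to Hcn3 per length was 1.415 to 1.516 with single libraries left out and 1.422 with lengths of the longest coding transcript. A mean over these libraries cannot move by as much as their SD when 1 is left out, so this range is a description and no check. With 283 to 2117 counts per library, all 3 members lay far above the floor of 3 counts.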
